A study of Mus musculus with 18 samples.

Results

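The genes described here are 10 genes of transforming growth factor beta (TGF-beta) signalling, chosen by symbol and not by a threshold on their values: the ligands Tgfb1, Tgfb2 and Tgfb3, the receptors Tgfbr1, Tgfbr2 and Tgfbr3, and the signal carriers and brake Smad2, Smad3, Smad4 and Smad7. They are 10 of 21883 protein-coding genes in the series. Each gene was taken with 2000 bases on each side, which is called its span here. The measurement was methylated DNA immunoprecipitation sequencing (MeDIP-seq): an antibody against 5-methylcytosine pulls down sheared DNA, and a peak is a place where pulled-down fragments pile up. A peak is not a percentage of methylated molecules.

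All 18 mice were 12-week-old C57BL/6JR males under sodium pentobarbital. In 15 of them the left anterior descending coronary artery was tied to cause myocardial infarction (MI), and the times after the tie were 10 min and 1 h, then 6 h, then 24 h, with 72 h the latest. In the other 3, the sham group (0 h), the suture was passed but not tied. Each group held 3 mice and gave 3 libraries. The labels give myocardial tissue and the cell type Cardiomyocytes, and no cell isolation is described, nor which part of the ventricle was sampled. Peaks lie on DNA, so the labelled cell type could not be checked by RNA markers, and a change in the cells present cannot be told apart from a change in methylation within cells.

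TGF-beta ligands are secreted in a latent complex and, once freed, bind the type II receptor, which activates the type I receptor. The activated pair phosphorylates Smad2 and Smad3, which join Smad4 and enter the nucleus to switch on genes such as those of the extracellular matrix. In the infarcted heart this pathway is known for driving fibroblasts to lay down the scar. Methylated cytosine in mammals sits mostly in the dinucleotide CG, and promoters rich in CG are usually unmethylated.

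The number of peaks in a deposited list ran from 34255 for 6 h replicate 3 up to 60653 for 72 h replicate 2. The group mean was lowest at 6 h (42620.3 ± 8149) and highest at 72 h (56084 ± 6528), with 51287 ± 8068 in sham (SD, n = 3 each). Read depth is not known from the lists. The lowest score in every list was 50. Each peak's score is a value of the authors, and a position without a peak is one that the list of that library does not hold. Why a position is missing from a list cannot be told from the lists.

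Peaks of the 18 lists that overlapped were joined into 152196 regions, of which 76 lay at the 10 genes. These 76 regions came from 444 peaks and had a median width of 1154 bases (range 527 to 3678). Of the 76 regions, 69 touched the gene itself and 7 lay wholly outside it, overlapping the 2000 bases beside it; 5 of these 7 reached beyond those bases. A peak in at least 14 of 18 libraries was found for 10 regions (13.2%), against 11% of the 79191 regions at protein-coding genes. A peak in 1 library alone was found for 18 regions (23.7%, against 29.8%). The number of the 76 regions with a peak ran from 16 in 6 h replicate 3 to 34 in 72 h replicate 2, the libraries with the shortest and the longest list. Per 10000 peaks of the list, the sham mean was 5.40 ± 0.0727 and the MI means lay between 4.95 ± 0.193 (1 h) and 5.16 ± 0.299 (10 min; SD, n = 3 each).

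Promoters were compared first, because the start of a gene is where methylation is best known to matter. RefSeq promoter windows (250 bases before to 50 after the start, GRCm38.p6, the same assembly as mm10) were at hand for 5 of the 10 genes, in 6 windows. None of the 6 windows touched a peak in any of the 18 libraries. Of all 32851 windows, 8.93% touched a peak in at least 1 library. The share was 4.77% among the 14281 windows with at least 10 CG and 12.1% among the 18570 with fewer. The 300-base windows of Tgfbr1 held 34 CG at its first start and 3 at its second, those of Tgfb1 30, Smad3 25, Tgfbr2 15 and Tgfb2 10. The median over all windows was 7. The 250 bases before the start are printed for 3 of them, from 5′ to 3′ on the strand of the gene with each CG in capitals. The first and the third are CG-rich windows with no peak, and the Tgfbr2 window lies 196 bases from a region that had a peak in all 72 h libraries.
Tgfb1, chr7:25686752-25687001, plus strand, 21 CG: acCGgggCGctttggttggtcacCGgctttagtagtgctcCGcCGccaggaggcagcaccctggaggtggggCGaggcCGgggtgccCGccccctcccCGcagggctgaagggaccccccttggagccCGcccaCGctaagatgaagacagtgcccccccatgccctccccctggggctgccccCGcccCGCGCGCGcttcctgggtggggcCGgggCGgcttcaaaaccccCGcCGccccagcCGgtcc
Tgfbr2, chr9:116175364-116175613, minus strand, 12 CG: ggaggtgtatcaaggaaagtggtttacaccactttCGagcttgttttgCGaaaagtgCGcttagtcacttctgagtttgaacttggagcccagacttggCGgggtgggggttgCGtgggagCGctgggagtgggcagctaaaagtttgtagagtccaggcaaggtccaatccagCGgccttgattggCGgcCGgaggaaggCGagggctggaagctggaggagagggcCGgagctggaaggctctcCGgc
Smad3, chr9:63757995-63758244, minus strand, 22 CG: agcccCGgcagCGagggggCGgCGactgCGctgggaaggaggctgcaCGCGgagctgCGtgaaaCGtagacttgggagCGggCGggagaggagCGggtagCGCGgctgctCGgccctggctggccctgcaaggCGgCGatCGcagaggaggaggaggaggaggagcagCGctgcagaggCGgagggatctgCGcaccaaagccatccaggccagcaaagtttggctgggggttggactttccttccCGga
The letters CAGAC, the core that Smad3 and Smad4 bind, were counted on both strands. Of the 6 windows 3 held them: that of Tgfbr2 and the second of Tgfbr1 1 time each and that of Tgfb2 2 times. Of all windows 49.6% held them. The palindrome GTCTAGAC, known as a Smad-binding element, was in none of the 6 windows and in 0.213% of all windows.

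The percentage of each span under peaks was then followed over the 6 groups. With limma, fitted to 14578 protein-coding genes that had a peak in at least 3 libraries, 0 of the 9 genes tested here passed an adjusted p of 0.05 over the 6 groups. Of all genes tested 0.247% (36) did. Tgfbr1 had a peak in 1 library and was not tested. Against sham, 0 of 9 passed at each MI time. The share of all genes that passed was 0.0412% for 10 min and likewise for 1 h, 0.0274% for 6 h, 0.0686% for 24 h and 0.117% for 72 h. At an unadjusted limma p under 0.05 there was 1 of 9 over the 6 groups (6.26% of all genes) and 1 of 9 at 72 h (6.94% of all genes). Both were Tgfb3. The earlier times had 0 of 9, where the share of all genes was 5.06% for 10 min, 4.84% for 1 h, 5.67% for 6 h and 4.8% for 24 h. An exact permutation test of each gene cannot go below 0.1 with 3 libraries against 3, so it could call none.

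**Figure D1:**
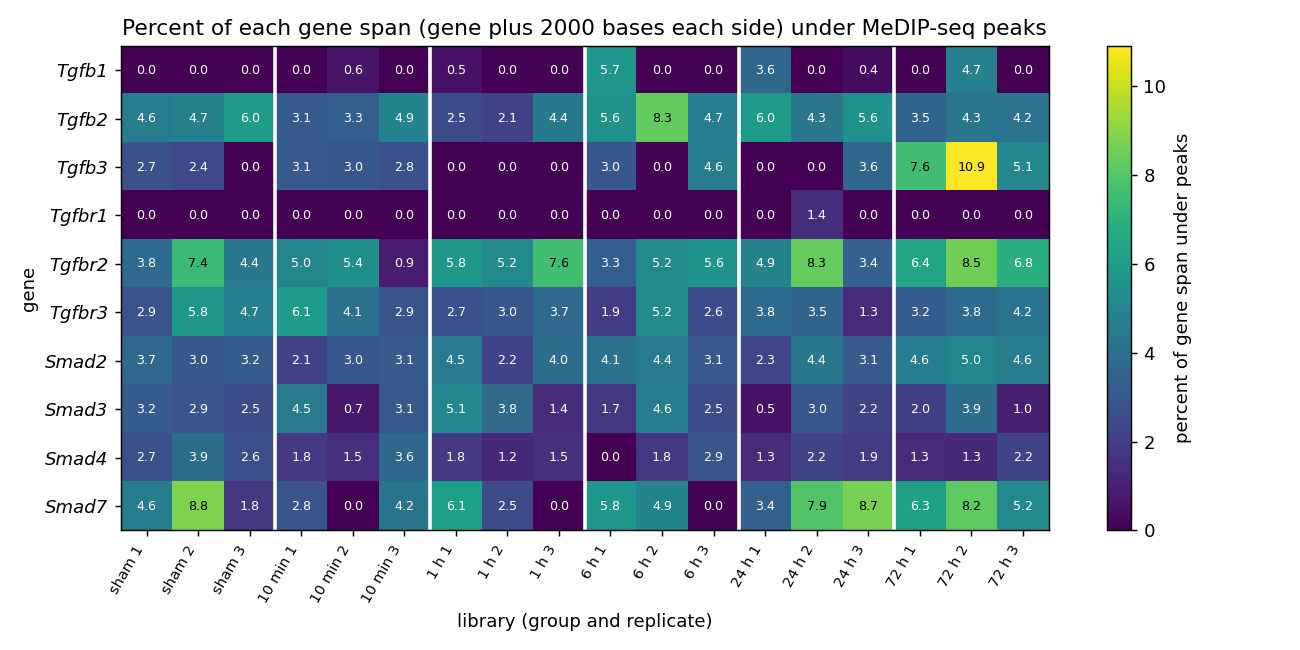
Percentage of each gene span (gene plus 2000 bases on each side, rows) under the peaks of each library (columns, 3 per group). Tgfbr1 has a value above 0 in 1 library only, and the highest value of the panel is Tgfb3 in 72 h replicate 2 (10.9%).

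At 72 h, 5 of the 9 genes tested had a mean above sham and 4 below, with a median difference of 1.45 percentage points. For all genes tested the median was 0.215, with 8322 above and 6068 below. At 1 h the median was -1.31 for the 9 genes (4 above, 5 below) and -0.405 for all genes. With 9 genes each median is the value of 1 gene and lies beside a gap. At 72 h it was that of Smad2, and the next lower value was -0.524 (Smad3). At 1 h it was that of Tgfbr3, and the next higher value was 0.174 (Tgfb1). The lists at 72 h were also the longest on average. The part of list length in these medians was not tested.

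Of the ligands, Tgfb3 had the largest difference from sham of any gene here in percentage points. A peak of a given width is a larger percentage of a short span. The span of Tgfb3 was 26.3 kb, against 91.7 kb for Tgfbr2 and 187 kb for Tgfbr3. The genes were not ranked by bases under peaks. Tgfb3 (chr12:86056743-86079041) encodes the TGF-beta isoform best known from palate fusion. Its span was 2.70%, 2.41% and 0% under peaks in the 3 sham libraries, 3.07%, 2.99% and 2.76% at 10 min, and 0% in each library at 1 h. It was 2.96%, 0% and 4.64% after 6 h, 0%, 0% and 3.59% after 24 h, then 7.59%, 10.9% and 5.07% after 72 h, in order of replicate number. Every 72 h library was above every other library of the series. The 10 min libraries were also all above sham, narrowly. The 72 h mean was 7.86% ± 2.93 and the sham mean 1.70% ± 1.48 (SD, n = 3 each). The difference of 6.15 percentage points (SE 1.48) had a limma p of 0.000969 and did not pass over all genes (adjusted p = 0.194, range over the alternatives 0.0787 to 0.944). The exact permutation p was 0.1, the smallest that 3 against 3 allows. With every list shortened to its 34255 best-scoring peaks the difference was 5.33 points (limma adjusted p = 0.824).

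**Figure D2:**
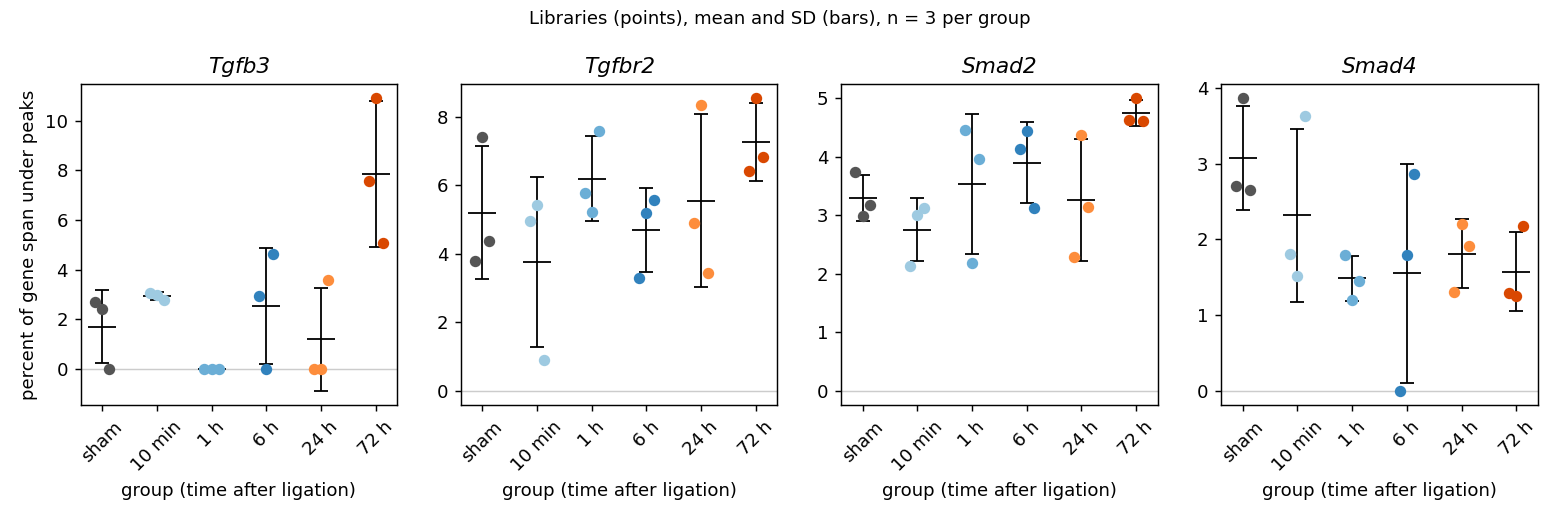
Percentage of the span of 4 genes under peaks, by group (x axis, 3 libraries each as points, black bars for mean and SD). The 3 libraries at 72 h are the highest of the series for Tgfb3 (5.07% to 10.9%) and Smad2 (4.61% to 5.00%), while for Smad4 the sham mean (3.07%) is above the mean of every MI time.

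The 72 h value of Tgfb3 came from 3 peaks in replicate 2, 2 in replicate 1 and 1 in replicate 3. The region chr12:86077280-86078612, inside Tgfb3 and 429 bases from its higher-coordinate end, was marked in all 3 libraries of 72 h, in none of sham and in 1 of the 12 other MI libraries (6 h replicate 3). Its scores at 72 h were 66.9, 104.5 and 108.9, above 35.9%, 77.2% and 84.8% of the peaks of their own lists. The 6 h peak scored 58.6. In 72 h replicates 1 and 2 a further peak lay near the other end of the gene (chr12:86058177-86059246), a region that 1 sham and 2 of the 10 min libraries also held. The third peak of replicate 2 lay at chr12:86069152-86070156 (score 83.5), where 1 library each of sham, 10 min and 24 h had one. At a score of at least 70, peaks at Tgfb3 were left only in 72 h replicates 2 and 3, 4 in all, so that 72 h replicate 1 then had none.

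Tgfb1 (chr7:25687002-25705077) encodes the isoform most studied in scar formation. It had 7 peaks in 6 of the 18 libraries, none of them sham, with scores from 54.3 to 76.8. Its span was 5.68% under peaks in 6 h replicate 1, 4.73% in 72 h replicate 2, 3.65% in 24 h replicate 1, and at most 0.602% in each other library. No MI time had a peak at Tgfb1 in all 3 libraries. The largest mean difference from sham, 1.89 points at 6 h (SE 1.48, limma adjusted p = 0.946), rested on 6 h replicate 1 and was 0 without it. Of its 3 regions, those at chr7:25684055-25685134 and chr7:25685277-25686081 lie before the start and overlap the neighbouring gene B9d2.

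Tgfb2 (chr1:186622787-186709697) encodes the isoform known for its part in heart development. It had 11 regions and was marked in all 18 libraries, from 2.10% to 8.27% of its span. The sham values were 4.60%, 4.74% and 6.03%, those at 1 h 2.52%, 2.10% and 4.41%, and those at 72 h 3.46%, 4.28% and 4.17%. The ranges at 1 h and at 72 h lay below that of sham, while 6 h (4.65% to 8.27%) and 24 h (4.33% to 5.96%) overlapped it. The difference at 1 h was -2.11 points (SE 1.07, limma adjusted p = 0.975). With equal numbers of top-scoring peaks it was 0.927 points, on the other side of 0. The most recurrent region, chr1:186624626-186626266, had a peak in 17 of 18 libraries, all but 10 min replicate 2.

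Along Tgfb2 single regions came and went between groups. The region chr1:186631773-186633195 held a peak in all 3 sham libraries, in 2 of 3 for 10 min, 1 h and 6 h alike, in 1 of 3 for 24 h and in none for 72 h. The sham peaks there scored 61.6, 64.4 and 54.0, so they were near the lower limit of the lists. The region chr1:186676698-186678642, which contains the small annotated gene Gm26169, had a peak in all 6 libraries at 6 h and 24 h, in none of the 6 at 10 min and 1 h, and in 2 of 3 in sham and at 72 h. The region chr1:186710314-186712659, beyond the gene, was marked in all 3 sham libraries, in none for 6 h and in 1 of 3 for each other time. The sham peaks there did not all share a stretch: that of replicate 3 ended at 186711379 and that of replicate 1 began at 186711558, while that of replicate 2 spanned both.

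**Figure D3:**
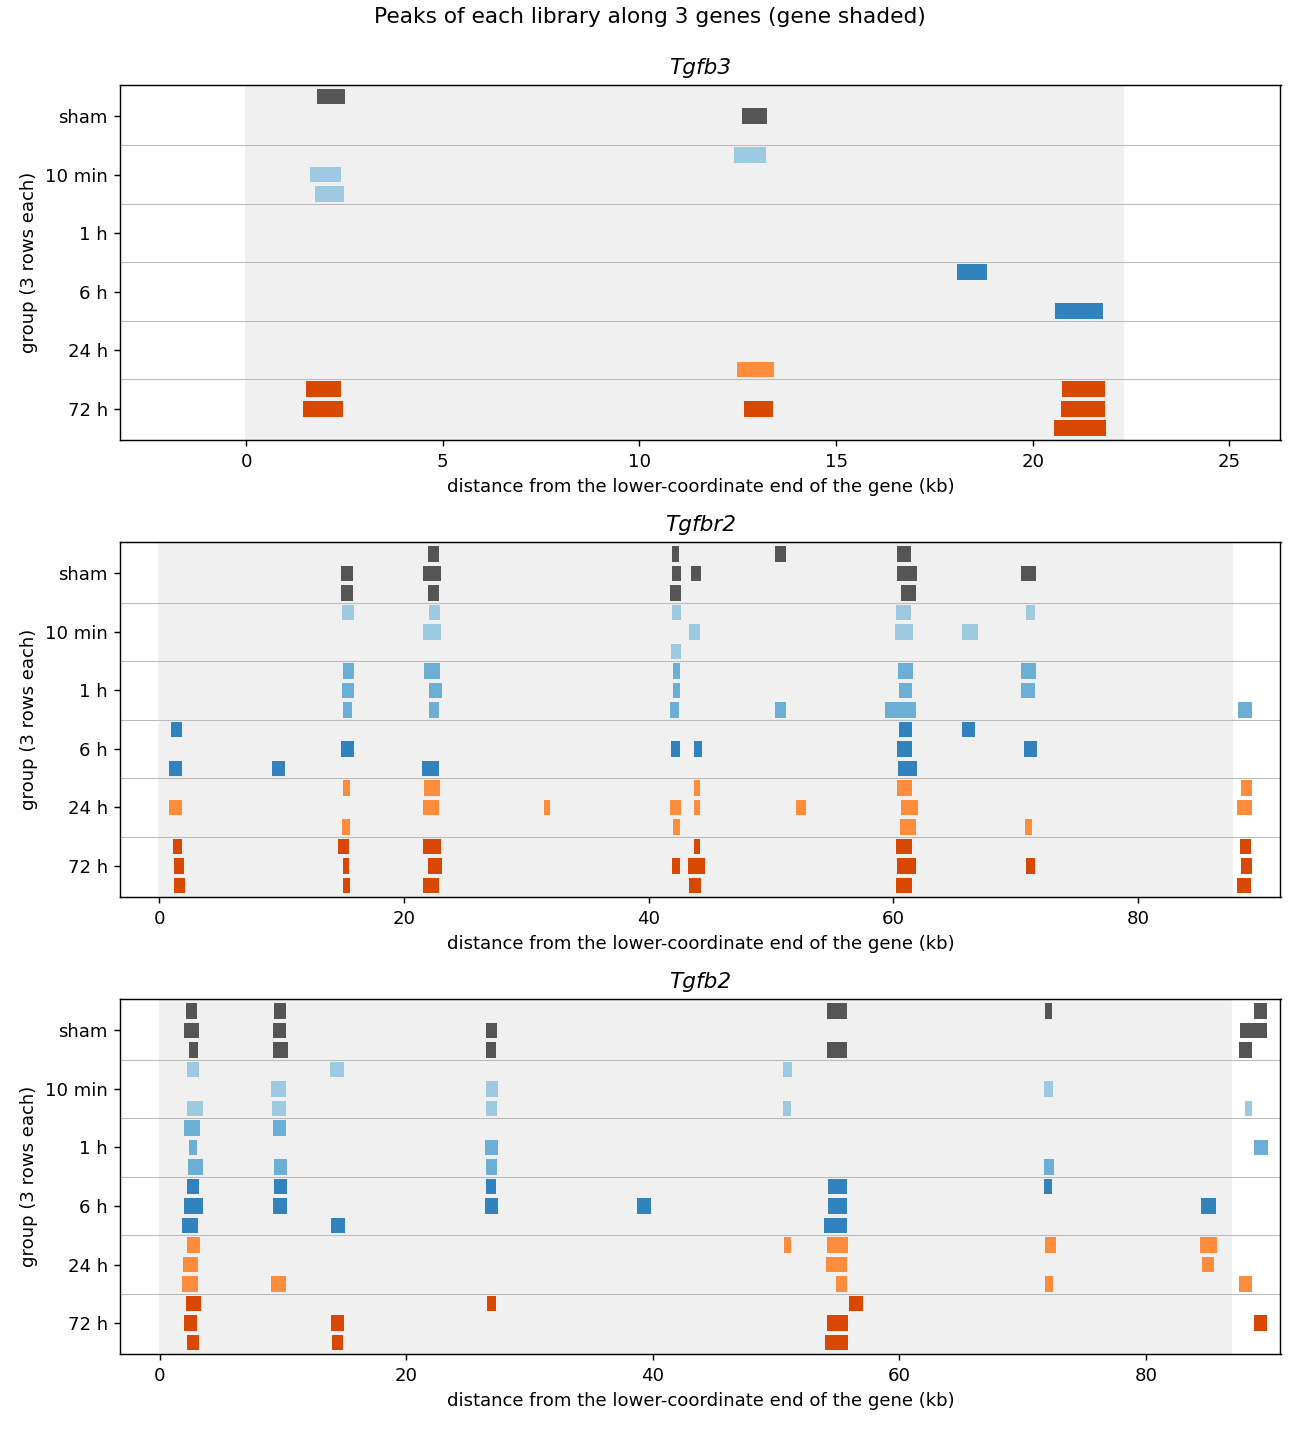
Peaks of each library (rows, 3 per group, colour by group) along Tgfb3, Tgfbr2 and Tgfb2; the x axis is the distance in kb from the lower-coordinate end of the gene, which is shaded. Peaks beyond the gene on the right of the Tgfbr2 panel lie before its start and are found in all 3 libraries at 72 h, 2 at 24 h and 1 at 1 h.

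Among the receptors, the type I receptor and the type II receptor stood at opposite ends. Tgfbr1 (chr4:47353222-47414926), which encodes the type I receptor kinase that phosphorylates Smad2 and Smad3, had 1 peak in the whole series, in 24 h replicate 2 (chr4:47396201-47397136, score 54.8). Tgfbr2 (chr9:116087695-116175363), which encodes the ligand-binding type II receptor kinase, had 89 peaks in 13 regions and the highest mean over the 18 libraries of the 10 genes (5.44% of its span). Peak regions numbered 1.52 per 100 kb of span for Tgfbr1 and 14.2 for Tgfbr2.

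The Tgfbr2 span was 3.80%, 7.42% and 4.38% under peaks in sham, 4.95%, 5.41% and 0.891% at 10 min, and 5.77%, 5.22% and 7.60% at 1 h. It was 3.28%, 5.20% and 5.56% after 6 h, 4.89%, 8.34% and 3.43% after 24 h, then 6.41%, 8.54% and 6.84% after 72 h. Every group overlapped sham. The 72 h difference was 2.06 points (SE 1.58, limma adjusted p = 0.914). It was -0.451 points with equal numbers of top-scoring peaks and -0.431 points at a score of at least 70.

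The Tgfbr2 regions with a peak in every 72 h library and in no sham library lay at the 2 ends of the gene. The region chr9:116175809-116177047 lies from 446 to 1684 bases before the gene's start and overlaps the annotated gene Gm40582. All 3 libraries of 72 h held a peak there, as did 2 of 24 h and 1 of 1 h, and none of 10 min, 6 h and sham. Its 6 scores were between 53.2 and 63.7, so none of these peaks was left at a score of at least 70. The region chr9:116088505-116089810, at the far end of the gene, was marked in all 3 libraries of 72 h, 2 of 6 h and 1 of 24 h, and in none of 10 min, 1 h and sham. Its 72 h scores were 97.8, 55.5 and 53.8. At a score of at least 70 neither end met this rule, and other Tgfbr2 regions did: chr9:116102281-116103625 was gained and chr9:116129418-116130342 was lost at 72 h, the latter also with equal numbers of top-scoring peaks. Both lie inside the gene. Within the gene, chr9:116147041-116149684 had a peak in 17 of 18 libraries and chr9:116109134-116110838 in 14 of 18.

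Across the 18 libraries, the genes whose percentages ran most like that of Tgfbr2 were Dclk2 (Spearman rho 0.792), Mmp9 (0.779) and Grtp1 (0.778), the highest of all genes tested. The points share list length: the rho of Tgfbr2 with the number of peaks was 0.445. These are descriptions over 18 libraries and not tests.

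Tgfbr3 (chr5:107106567-107289629) encodes betaglycan, the co-receptor that presents ligand, above all TGF-beta 2, to the type II receptor. It is the longest of the 10 genes (183063 bases) and had the most regions (18). Its span was between 1.34% (24 h replicate 3) and 6.05% (10 min replicate 1) under peaks, and every MI time overlapped sham. The largest difference was -1.57 points at 24 h (SE 1.13, limma adjusted p = 0.983). The broad region chr5:107254766-107258443, 3678 bases wide, was the only one of the 76 with a peak in all 18 libraries (3.57% of the regions at protein-coding genes had one in all). Its scores ran from 52.0 to 163.0 with a median of 93.8.

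At Tgfbr3 the region chr5:107156443-107158822 was marked in every library of 10 min and 6 h, in none of sham and 1 h, in 1 of 24 h and in 2 of 72 h. The strongest of its peaks were those of 72 h replicates 2 and 3 (scores 93.4 and 110.6). The region chr5:107122816-107124139 went the other way, with every library of sham and 10 min marked, 1 library each of 1 h, 6 h and 72 h, and none of 24 h. Counts at the first of these regions did not run in order of time. Those at the second did not rise from sham to 24 h, and 1 library had a peak there again at 72 h.

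Smad2 and Smad3 are the receptor-activated Smads. The Smad2 span (chr18:76241090-76311748) was 3.73%, 2.98% and 3.18% under peaks in sham, 2.14%, 3.00% and 3.13% at 10 min, and 4.46%, 2.18% and 3.96% at 1 h. It was 4.13%, 4.44% and 3.12% after 6 h, 2.29%, 4.37% and 3.15% after 24 h, then 4.63%, 5.00% and 4.61% after 72 h. The 72 h libraries were close to each other and above every other library. The difference from sham was 1.45 points (SE 0.809, limma p = 0.0942, adjusted p = 0.794, exact permutation p = 0.1). It was 0.714 points with equal numbers of top-scoring peaks and 0.421 at a score of at least 70.

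Smad2 carried 3 of the 10 recurrent regions. The region chr18:76267982-76269580 had a peak in 17 of 18 libraries with a median score of 133.6, the highest median of the 76 regions, and its peaks lay above 92.0% of their lists at the median. The region chr18:76312995-76314907, beyond the gene, was found in 16 of 18 and chr18:76299051-76300500 in 14 of 18. Less frequent regions differed between times. The region chr18:76286271-76287309 was marked in all 3 libraries of 72 h, 1 of sham and no other. The region chr18:76291397-76292093 had a peak in 3 of 3 at 1 h, 1 of 3 in sham and no other. The region chr18:76309813-76311025 was marked in all 3 libraries of 6 h, in none of sham and 24 h, and in 1 library each of 10 min, 1 h and 72 h.

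Smad3 (chr9:63646766-63757994), a Smad that binds DNA, as Smad4 does, and is closely tied to fibrosis, varied widely within groups. Its span was 2.85% ± 0.336 under peaks in sham (SD, n = 3 each). The mean was 2.77% ± 1.91 after 10 min, 3.43% ± 1.88 after 1 h and 2.95% ± 1.48 after 6 h. It was 1.91% ± 1.26 after 24 h and 2.32% ± 1.49 after 72 h. Every MI time overlapped sham. Its recurrent region, chr9:63738875-63741816, had a peak in 14 of 18 libraries, and none of its 9 regions separated an MI time from sham.

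Smad4, the partner shared by all receptor-activated Smads, had its highest group mean in sham. Its span (chr18:73634790-73703791) was 2.71%, 3.86% and 2.65% under peaks in sham, 1.81%, 1.52% and 3.62% at 10 min, and 1.79%, 1.20% and 1.45% at 1 h. It was 0%, 1.79% and 2.86% after 6 h, 1.31%, 2.20% and 1.91% after 24 h, then 1.28%, 1.25% and 2.18% after 72 h. The ranges at 1 h, 24 h and 72 h lay wholly below sham, and 10 min and 6 h each had 1 library within the sham range. The mean of the 5 MI times minus sham was -1.33 points (SE 0.597, limma adjusted p = 0.959, range over the alternatives 0.704 to 0.998). Smad4 was the 1 gene of 9 with an unadjusted limma p under 0.05 in this contrast, where 4.9% of all genes had one and 0.0617% passed after adjustment. The mean over all genes tested was also below sham (4.26%) at 10 min (3.75%), 1 h (3.54%), 6 h (3.65%) and 24 h (3.91%), but not at 72 h (4.71%). In this contrast 8429 of all genes were lower and 6149 higher, with a median of -0.181 points. One strong region, chr18:73662020-73663590, had a peak in 17 of 18 libraries, all but 6 h replicate 1. The other 5 regions of Smad4 had a peak in 1 to 4 libraries each, and 3 of these held a peak in sham.

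Smad7 (chr18:75367365-75395935) encodes the inhibitory Smad that blocks the activated receptor and is itself switched on by the pathway. Its span ranged from 0% to 8.81% under peaks and spread widely within groups. The sham mean was 5.08% ± 3.53. The mean was 2.36% ± 2.16 after 10 min, 2.89% ± 3.09 after 1 h and 3.57% ± 3.11 after 6 h, and then 6.68% ± 2.86 after 24 h and 6.55% ± 1.53 after 72 h (SD, n = 3 each). Every MI time overlapped sham. A value of 0% was found in 3 libraries, 10 min replicate 2, 1 h replicate 3 and 6 h replicate 3. Of the 10 genes, Smad7 followed list length most closely (Spearman rho 0.659 over 18 libraries). Its recurrent region, chr18:75393227-75395404, lies in the gene 531 bases from its higher-coordinate end and had a peak in 14 of 18 libraries, 3 of 3 at 24 h and 72 h and 2 of 3 in each other group.

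A looser rule than the limma test counts genes whose 3 libraries at a time lay wholly on one side of the 3 sham libraries. Of the 9 genes tested, 1 was wholly higher at 10 min (Tgfb3; 2.25% of all genes tested) and 2 at 72 h (Tgfb3 and Smad2; 5.64% of all genes). None was wholly higher for 1 h (1.63%), 6 h (2.21%) or 24 h (2.62%). Wholly lower were 2 at 1 h (Tgfb2 and Smad4; 7.08%), 1 at 24 h (Smad4; 5.17%) and 2 at 72 h (Tgfb2 and Smad4; 2.96%), with none at 10 min or 6 h (5.25% and 5.4%). These comparisons share the sham libraries.

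A region was called gained with a peak in 3 of 3 libraries of an MI time and 0 of 3 sham libraries, and lost in the opposite case. Of the 76 regions, 8 met this rule at 1 or more times, in 9 calls, and they lay at Tgfb2, Tgfb3, Tgfbr2, Tgfbr3 and Smad2. Gained were 1 for 10 min (Tgfbr3; 0.216% of all merged regions of the series), 2 for 6 h (Tgfbr3 and Smad2; 0.201%) and 3 for 72 h (Tgfb3 and the ends of Tgfbr2; 0.719%). None was gained for 1 h (0.225%) or for 24 h (0.393%). Lost were 1 for 6 h (Tgfb2; 0.706%), 1 for 24 h (Tgfbr3; 0.524%) and 1 for 72 h (Tgfb2; 0.397%), and none for 10 min (0.624%) or for 1 h (0.553%). With 3 libraries a side, no single region could be called after adjustment over so many, so these are counts without a test. The shares are over all merged regions, those away from genes included, and were not computed for regions at protein-coding genes alone. A region with a peak in fewer than 3 libraries cannot meet the rule. Regions with 1 library alone were fewer among the 76 than among regions at protein-coding genes (23.7% against 29.8%), so the shares are not like for like. None of the 9 calls was left at a score of at least 70, where 4 other calls were made, or with equal numbers of top-scoring peaks, where 5 other calls were made. Without sham replicate 2 there were 20 calls, and 14 without 6 h replicate 2 or without 24 h replicate 3. Each other library left out gave 9 to 13 calls. By the rule, leaving out a library can keep or add calls but cannot remove any. Why some libraries added more calls than others was not tested.

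**Figure D4:**
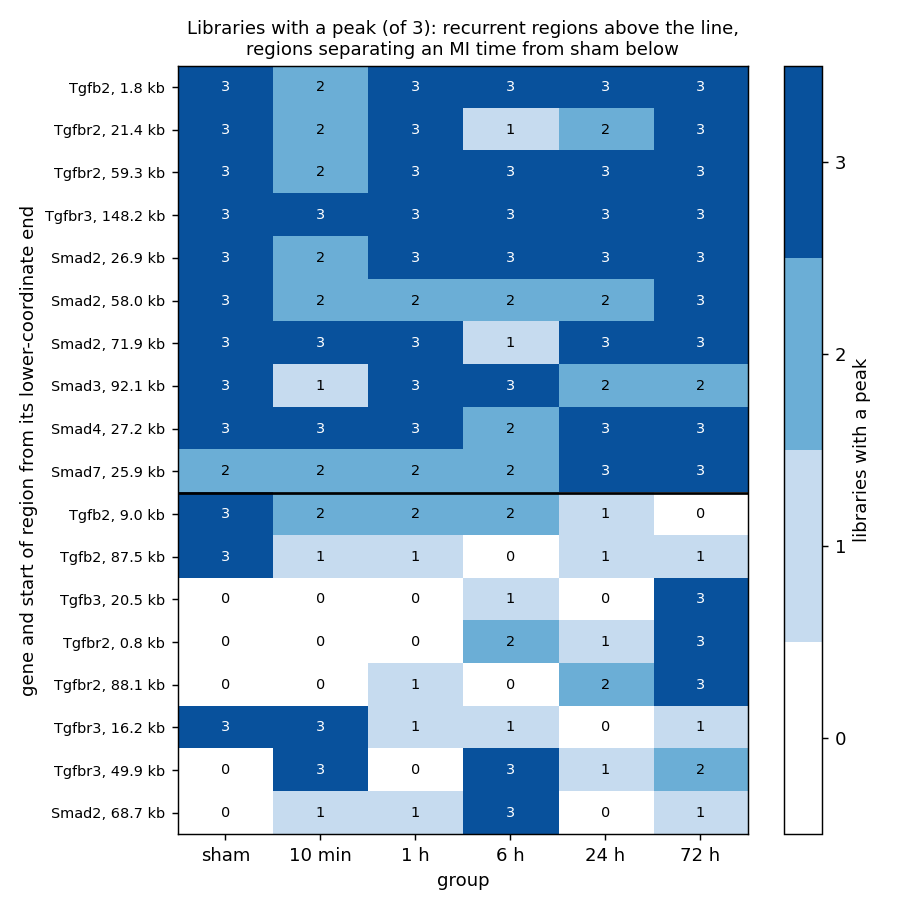
Number of libraries with a peak (of 3, colour and digit) in each group for the 10 recurrent regions (above the line) and the 8 regions gained or lost at some MI time (below it). Each recurrent region was found in at least 1 library of every group, and the 3 regions with 3 libraries at 72 h and 0 in sham lie at Tgfb3 and at both ends of Tgfbr2.

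The rest of the pathway was read from 5 lists of 60 genes. No gene of any list passed the limma test at any MI time or over the 6 groups. For ligand latency and activation 7 of 12 genes could be tested, with a median difference at 72 h of 0.0190 points. The values were 0.451 for other receptors (7 of 10 tested), -0.415 for other ligands of the family (11 of 12), -0.156 for other Smads and their regulators (14 of 16) and 0.723 for scar-associated target genes (6 of 10), against 0.215 for all genes. Unadjusted limma p-values under 0.05 at 72 h were found for 2 of the 45 genes tested in the 5 lists, against 6.94% of all genes. They are named after their values were seen: Bmp2, a bone morphogenetic protein ligand, with a mean of 6.10% of its span in sham and 0% at 72 h (adjusted p = 0.681), and Tab1, an adaptor of the kinase TAK1, with 0% in sham and 3.88% at 72 h (adjusted p = 0.534).

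Marker genes of the cell types that the heart could hold were read the same way, as DNA peaks only. Of 10 leukocyte markers 4 had no peak in any library (Cd68, Ly6c1, S100a8 and S100a9), and their mean percentage ran from 0.193% to 1.03% in the sham libraries and from 0.734% to 0.962% at 72 h. For 6 cardiomyocyte markers it ran from 2.05% to 2.63% in sham and from 3.16% to 5.64% at 72 h, and for 6 fibroblast markers from 0.999% to 1.93% and from 1.28% to 2.87%. For 4 endothelial markers the ranges were 2.67% to 4.63% and 2.33% to 5.27%. None of these marker genes passed the limma test. The cardiomyocyte mean was 0.831% at 10 min, 2.23% at 1 h, 0.854% at 6 h and 3.61% at 24 h, so it did not run in order of time. For all genes tested the ranges were 3.74% to 5.15% in sham and 4.22% to 5.18% at 72 h. Tnnt2, cardiac troponin T, had a mean of 1.15% in sham and 8.28% at 72 h (limma adjusted p = 0.154), and Csf1r, a receptor of macrophages, 0% and 4.38% (adjusted p = 0.483), both named after their values were seen. The part of cell composition in the 72 h values of Tgfb3 and Smad2 was not tested.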

How the data were processed

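Each library's file is a list of peaks (chromosome, start, end, name, score) that the authors deposited; 1 list per library, so replicates were not pooled. The submitters' processing notes name Bowtie2, MACS2 and mm10, without versions or options; use of an input library is not given in the sources used here. The score in the deposited lists has no stated scale (lowest 50 in each) and was used only to describe, rank and filter peaks. A higher depth gives more peaks, so list length can move every value; no counting interval can be given. Gene positions are those of RefSeq GRCm38.p6; exons and introns were not used here.

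The percentage of each span under peaks was computed in Python 3.11.15 and tested with limma 3.58.1 (R 4.3.3; trend, robust, 6 groups, 18 libraries, no covariate), with Benjamini-Hochberg adjustment over 14578 genes with a peak in at least 3 libraries. The fit was also run on simulated data with large differences added at 72 h. That run does not show the power of the fit for differences of the size seen here. Exact permutation tests are two-sided. Regions join peaks that overlap by at least 1 base. The genes and lists were chosen with earlier results of these data known. All 10 genes are named whatever their values; regions described are those with a peak in at least 14 libraries, those gained or lost, and, chosen after seeing their values, a few others at Tgfb1, Tgfb2, Tgfb3, Tgfbr1, Tgfbr2 and Smad2. The Tgfbr2 likeness takes the 3 genes of highest rho. Alternatives were a score of at least 70, equal lists of 34255 top-scoring peaks, 0 or 5000 bases beside genes, log2 with 0.1 added, scaling by library, filters of 1 or 9 libraries, 50% region overlap, a replicate block, and each library left out.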

Additional observations from a re-analysis of the deposited data

Results flagged for a closer look

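With 3 libraries a group, single libraries were not searched for outlying values. In 3 of the genes, all libraries of 1 MI time exceeded the mean of sham while all those of a second MI time fell short of it. Such opposite shifts have many ways to arise over 9 genes and 5 times, and the difference was not tested. For Tgfb3 the second time was 1 h, when the gene had no peak: the mean percentage of 10 min exceeded it by 2.94 points and that of 72 h by 7.86 points. For Smad2 the mean of 72 h exceeded that of 10 min by 1.99 points. For Smad7 it did so by 4.19 points, and the lists of 72 h were also longer (56084 against 44457 peaks on average).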

How the results depend on the processing

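None of the genes passed (7 to 10 of them could be tested) under any of the 27 alternatives of the test over the 6 groups or the 28 of the tests against sham. The exact permutation test is among these 28 and could call no gene, since its p cannot go below 0.1 with 3 libraries against 3. For each gene tested, the difference recomputed was that of the MI time with its smallest limma p against sham. For Smad4 the mean of the MI times minus sham was added. These differences were thus picked by their values in the same data, and alternatives that leave out 1 library share most of the data. Of 265 such recomputed differences, 260 kept their direction. The 5 that did not were Tgfb1 at 6 h (0 without 6 h replicate 1; with 1 library left out 0 to 2.84), Tgfb2 at 1 h (0.927 with equal lists), Tgfbr2 at 72 h (-0.431 at a score of at least 70, -0.451 with equal lists) and Smad7 at 10 min (0.219 with equal lists). The 9 calls of gained or lost regions became 4 at a score of at least 70, 5 with equal lists and 8 at 50% overlap, with 0, 0 and 7 of the 9 kept, and 9 to 20 with 1 library left out. Over all genes, the 17 passing at 72 h became 30 at a score of at least 70, 7 with equal lists and 0 in limma with a peak in at least 9 libraries (660 at an unadjusted p under 0.05); the 36 over the 6 groups became 17 with equal lists and 5 with at least 9 libraries. Same-numbered libraries of different groups shared little in their deviations from the group means (0 of 45 same-numbered pairs had a correlation over 0.1, highest 0.0761). These correlations cannot show whether mice or libraries were paired by design. With the replicate block 0 of the 9 genes passed, and the limma adjusted p of Tgfb3 at 72 h was 0.354. Peaks near a score of 50 are the lowest-scoring of the lists, and what the score means for certainty is not stated. A missing peak does not show missing methylation.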
